A study of Mus musculus with 17 samples.

Results

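The regions described here were open in B cells and closed in plasma cells. Each lay outside promoters and off chrX, chrY and chrM, had a mean of at least 5 RPPM in both naive B cells (abbreviated nB) and B cells of the germinal center (GCB) of Dnmt3-sufficient mice, differed by no more than 2-fold between these 2 cell types, and was at least 4-fold lower in bone marrow plasma cells (BMPC). RPPM denotes the reads in a region divided by the reads in all accessible regions of that library and scaled to the same total in each. The rule found 2096 members among 66177 accessible regions, which was 4.14% of the 50648 regions outside promoters and off these chromosomes and 16.1% of the 13025 regions that met the B cell part of the rule. Because the rule read the Dnmt3-sufficient libraries, values of those libraries are given as a description, and the tests that bear on closing are those among Dnmt3-deficient libraries, which the rule did not read. Differences between the genotypes share the libraries of the rule, and their counts are given as a description.

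ATAC-seq was used, in which the Tn5 transposase inserts adapters into open DNA. Dnmt3-deficient mice (KO) carried a Cre allele active in B cells together with Dnmt3a fl/fl and Dnmt3b fl/fl, while Dnmt3-sufficient littermates (C) lacked Cre and had the same floxed alleles, all on the B6;129S4-Dnmt3atm3.1Enl Dnmt3btm5.1Enl/Mmnc background and all young adults. Cre is active from early B cell development, so both de novo methyltransferase genes were targeted before the naive stage. The nB (B220+ Fas- GL7-) came from lymph nodes of unimmunized male mice, with 3 C and 2 KO libraries. The GCB (B220+ Fas+ GL7+ PE+) bound the immunogen phycoerythrin and came from lymph nodes taken 30 days after immunization, with 2 C and 4 KO libraries, each a pool of a pair of mice, and 1 library of each genotype was from males. The BMPC (CD138+) came from bone marrow of immunized females, with 3 C and 2 KO libraries. BMPC therefore differed from both B cell groups in tissue, and from nB also in sex and immunization, and these cannot be told apart from cell type. A further KO BMPC library is listed by the submitters but was not analysed here.

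When a B cell becomes a plasma cell it loses its B cell identity. In B cells, PAX5, EBF1, PU.1, SPI-B and E2A maintain the genes for the B cell receptor and its signaling chain, for MHC class II antigen presentation and for homing receptors. In plasma cells, Blimp-1 (encoded by Prdm1) represses Pax5 and Ciita, and antibody secretion replaces antigen presentation. Open regions far from promoters include the enhancers at which these factors bind, and the sequences below come from such regions next to genes that are part of this program.

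The central 300 bp of the strongest member at 4 of these genes are shown because the B cell gene lists turn on them, with every match to any of 19 transcription factor motifs in capitals. All 4 lie in an intron of the named gene, and the sequence was read from the NCBIM37 (mm9) genome, 5′ to 3′ on the plus strand.
Pax5, chr4:44680311-44680610, plus strand: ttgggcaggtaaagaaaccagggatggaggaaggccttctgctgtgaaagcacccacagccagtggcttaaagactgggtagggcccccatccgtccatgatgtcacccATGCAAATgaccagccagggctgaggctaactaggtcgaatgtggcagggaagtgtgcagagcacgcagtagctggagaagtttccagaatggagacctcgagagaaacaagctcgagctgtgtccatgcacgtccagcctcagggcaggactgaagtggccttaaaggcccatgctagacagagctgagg
Ebf1, chr11:44764008-44764307, plus strand: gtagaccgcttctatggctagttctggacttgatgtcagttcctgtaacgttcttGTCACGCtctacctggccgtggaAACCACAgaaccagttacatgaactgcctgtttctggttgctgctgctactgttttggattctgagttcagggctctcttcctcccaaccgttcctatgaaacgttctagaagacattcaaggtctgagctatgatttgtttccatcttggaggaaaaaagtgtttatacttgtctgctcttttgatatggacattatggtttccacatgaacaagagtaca
Bach2, chr4:32488487-32488786, plus strand: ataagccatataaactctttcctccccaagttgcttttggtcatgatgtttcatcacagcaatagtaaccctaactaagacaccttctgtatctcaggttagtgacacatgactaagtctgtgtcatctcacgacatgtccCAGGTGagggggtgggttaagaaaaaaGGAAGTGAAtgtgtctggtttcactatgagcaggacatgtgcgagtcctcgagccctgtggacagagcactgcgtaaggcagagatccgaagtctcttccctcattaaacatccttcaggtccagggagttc
Ciita, chr16:10516167-10516466, plus strand: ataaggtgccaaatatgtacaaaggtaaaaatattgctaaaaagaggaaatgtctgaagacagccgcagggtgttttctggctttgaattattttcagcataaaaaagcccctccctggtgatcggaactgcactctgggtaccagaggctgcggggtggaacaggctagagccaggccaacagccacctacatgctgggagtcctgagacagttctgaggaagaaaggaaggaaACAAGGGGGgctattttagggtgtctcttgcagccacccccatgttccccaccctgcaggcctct
The Pax5 sequence held a single match, the octamer ATGCAAAT bound by OCT-2, a B cell POU factor. The Ebf1 sequence held the Pax5 core GCGTGAC on the minus strand and the RUNX motif AACCACA on the plus strand. The Bach2 sequence held the PU.1-IRF composite GGAANNGAA and an E-box CACCTG on the minus strand, and the Ciita sequence matched only the CTCF letters CCNCCTNGT, on the minus strand.

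Matches to the PU.1 motif GAGGAAGT, which had the highest ratio of its share in members to that in other regions among the 19 motifs searched, are shown next with 10 bp on either side, the motif in capitals and the strand that reads GAGGAAGT. They are the matches in the strongest members at Foxo1 and March1, and this set was chosen after the values were seen.
Foxo1, chr3:52165111-52165138, plus strand: tggcttttaaGAGGAAGTgatctaagtg
Foxo1, chr3:52164896-52164923, minus strand: ttctatggagGAGGAAGTggtgcctttg
March1, chr8:68929787-68929814, minus strand: ttgagaagcaGAGGAAGTcaggcagggt
March1, chr8:68929835-68929862, minus strand: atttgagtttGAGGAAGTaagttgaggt
Both genes had 2 matches in the 300 bp examined, and those at March1 were on the same strand.

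The nB libraries had 4104875 to 6079018 reads in regions, the BMPC libraries 5357687 to 8232313 and the GCB libraries fewer, 907959 to 2280954, so that 3 reads were worth 0.364 to 0.731 RPPM in nB and BMPC libraries but 1.32 to 3.3 in GCB. Labelled cell types were compared with the promoters of marker genes. The promoter of Gcsam, a gene of germinal center B cells, had 40.8 to 63.0 RPPM in GCB, 2.64 to 4.09 in nB and 12.9 to 18.2 in BMPC. That of Tnfrsf17, the plasma cell receptor BCMA, had 15.5 to 22.6 in BMPC and 0.165 to 6.36 elsewhere, and that of Fcer2a, the naive B cell marker CD23, had 36.8 to 49.2 in nB, 9.55 to 19.3 in GCB and 0.365 to 2.34 in BMPC. Summed over 8 B cell markers, promoters held 400 to 449 RPPM in C nB and 296 to 303 in C GCB. These sums were 113 to 122 in C BMPC and 110 to 117 in KO BMPC. Over the 7 of 8 germinal center markers with a promoter region the C sums were 290 to 304 in GCB, 191 to 202 in nB and 199 to 216 in BMPC, and over the 5 of 8 plasma cell markers 320 to 362 in BMPC, 260 to 279 in nB and 228 to 236 in GCB. Single markers did not all follow their list. Of the B cell markers, the Ebf1 promoter had 41.4 to 48.9 RPPM in C BMPC and 28.1 to 30.9 in C GCB. Its KO values were 37.1 to 38.5 in BMPC and 23.1 to 35.6 in GCB. The Bcl6 promoter had 49.3 to 58.7 RPPM in C nB and 18.5 to 21.5 in C GCB, that of S1pr2 38.3 to 41 in C BMPC and 23.4 to 29.0 in C GCB, and that of Irf4 56.3 to 63.7 in C nB and 47.1 to 55.1 in C BMPC, while the Prdm1 promoter had 92.6 to 100 in C nB and 97.4 to 98.8 in C BMPC. No marker promoter was at 0 in any library. Of the 10 T cell, 10 myeloid and 6 erythroid markers only 2, 3 and 2 had a promoter region, with sums of 38.1 to 41.4, 8.14 to 10.4 and 19.0 to 26.1 RPPM in BMPC, and the T cell sum was mostly Cd28, a gene that plasma cells also use.

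Members held nearly the same share of reads in GCB as in nB and far less in BMPC of both genotypes. As a share of all reads in regions they held 3.90, 3.86 and 3.87% in the C nB libraries, 3.87 and 3.90% in KO nB. The C GCB libraries were at 3.71 and 3.52%, and those of KO GCB at 3.48, 3.4, 3.74 and 3.56%. In C BMPC the shares were 0.487, 0.331 and 0.355%, and in KO BMPC 0.513 and 0.454%. All 5 BMPC libraries lay below all 11 B cell libraries, and C BMPC replicate 1 lay between the KO BMPC libraries. As group means this was 3.88% ± 0.0176 (SD, n = 3) in C nB, 3.89% ± 0.0244 (n = 2) in KO nB, 0.391% ± 0.0840 (n = 3) in C BMPC and 0.483% ± 0.0416 (n = 2) in KO BMPC. For comparison, 6497 regions outside promoters that had at least 5 RPPM and stayed within 2-fold in all 3 C cell types, called constitutively open here, held 12.2 to 14% of reads in every library. In bulk libraries, fewer cells with an open region and less opening per cell cannot be told apart.

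**Figure D1:**
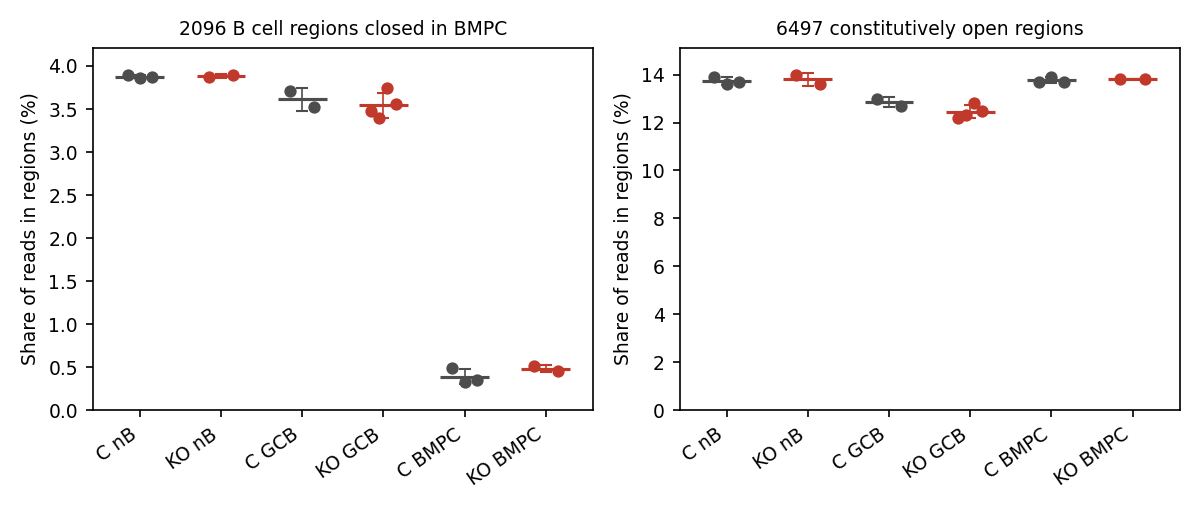
Share of reads in regions (%, vertical axes from 0) that fell in the 2096 members (left) and in 6497 constitutively open regions (right), by group. Each point is a library, the long bar the mean and the whiskers the SD, with C in grey and KO in red; members hold 3.4 to 3.90% in nB and GCB and 0.331 to 0.513% in BMPC, while constitutively open regions hold 12.2 to 14% throughout.

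The typical member had 13.5 RPPM in C nB, 12.5 in C GCB and 1.22 in C BMPC, and 13.5, 12.9 and 1.5 in the KO groups. Its C BMPC level was 9.53% of its C nB level at the median, with a middle 80% of 2.97 to 19.7%. The corresponding KO value was 11.1% with a middle 80% of 2.76 to 27.5%. Many members reached the counting floor in plasma cells. Between 176 and 743 of the 2096 were at or under 3 reads in a BMPC library and 7 to 131 had no read at all, whereas no nB library had a member at or under 3 reads.

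At the 4-fold limit of the rule there was no visible gap. The members just inside it were at Nfyc (equal to the limit to 3 decimals), at a transcript without a symbol on chromosome 7 (4.001-fold) and at Psd3 (4.003), and the regions just outside were near Nab1 (3.997), Plekhf2 (3.993) and Iqgap1 (3.992).

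The KO libraries, which the rule did not read, asked whether the same regions close in plasma cells that lack Dnmt3a and Dnmt3b. They did in nearly every case. A region was called if the limma fit of log2(RPPM + 1) across the 66177 regions gave an adjusted p no higher than 0.01 with a log2 difference no smaller than 1. By this test 2027 members (96.7%) were lower in KO BMPC than in KO nB, against 16.9% of all regions. Against KO GCB, 2022 members (96.5%) were lower, against 19.9% of all regions, and 1974 members were lower than both. Without a test, both KO BMPC libraries were below both KO nB libraries at 2089 members (99.7%), against 37.0% of all regions, and below all 4 KO GCB libraries at 2062 (98.4%), against 31.2%. The median log2 difference of the members was -2.47 from KO nB and -2.34 from KO GCB, beside 0.08 and -0.03 over all regions and 0.03 and 0.13 over constitutively open regions. A fold on this scale understates the change of members near 0 reads in BMPC. The KO libraries differ from the C libraries by genotype but share the cell type and tissue of each group. They also share sex in nB and BMPC, while GCB mixed the sexes in unlike proportions. This comparison therefore repeats the contrast of the rule in other mice.

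**Figure D2:**
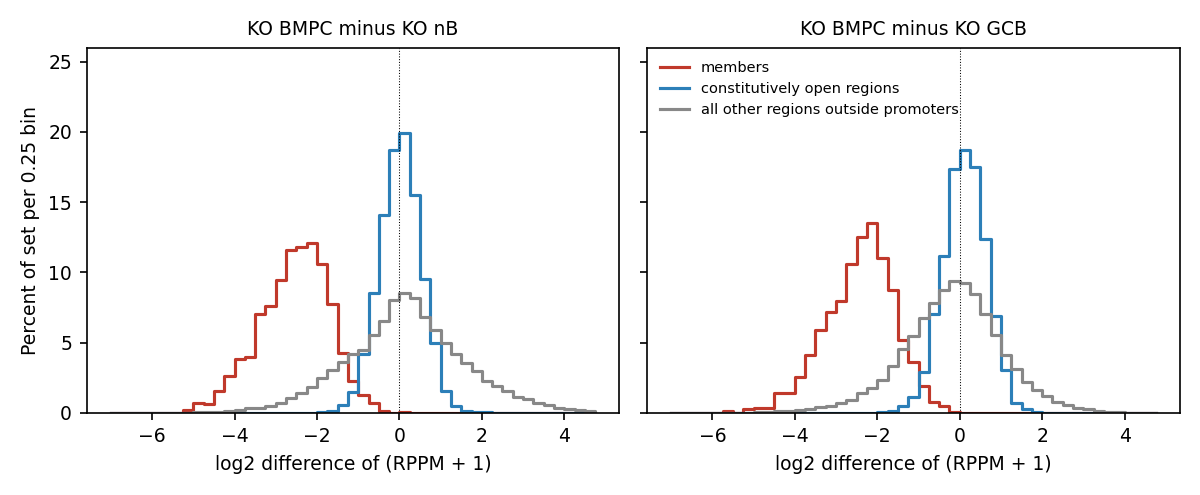
Distribution of the log2 difference of (RPPM + 1) between KO BMPC and KO nB (left) or KO GCB (right), as the percent of each set in bins of 0.25. Members (red) center near -2.47 and -2.34, constitutively open regions (blue) near 0.03 and 0.13, and other regions outside promoters (grey) spread on both sides of 0.

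The members were next ordered by their KO nB level. This level also enters the difference and the percent left, and the added 1 RPPM limits the fold of low regions, so the order alone favors larger differences at the top. In the 524 members with the lowest KO nB level (1.64 to 8.90 RPPM) the median difference was -1.93 and 14.8% of the KO nB level was left, whereas in the 524 with the highest (23.0 to 101 RPPM) it was -3.08 and 9.56% was left. From the lowest to the highest 524 by this order, 470, 515, 521 and 521 members were called lower.

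The members that closed most in KO BMPC, by the difference from the mean of KO nB and KO GCB, included regions near Cst11 and in Rtcb. The region 4074 bp from Cst11 (chr2:148589354-148590279), a cystatin gene, had 59.9, 65.0 and 63.5 RPPM in C nB, 58.9 and 72.2 in KO nB, 110 and 97.9 in C GCB with 106, 104, 109 and 121 in KO GCB, 0.780, 0.547 and 0.934 in C BMPC and 1.82 and 0.933 in KO BMPC. Every B cell library was far above every BMPC library, and KO BMPC was lower than KO nB by a log2 difference of -4.83 ± 0.19 (SE; adjusted p = 1.24e-16). In an intron of Rtcb (chr10:85414444-85415305), which encodes the RNA ligase that splices Xbp1 mRNA in secretory cells, the level was 65.3, 51.2 and 53.4 RPPM in C nB, 53.1 and 52.5 in KO nB, 62.9 and 65.6 in C GCB with 60.6, 54.7, 60.5 and 53.8 in KO GCB, 1.17, 0.730 and 0.467 in C BMPC and 0.486 and 0.747 in KO BMPC. The KO difference there was -5.06 ± 0.20 (adjusted p = 2.00e-16). The other 3 were near Mib1 and at 2 transcripts without a symbol on chromosomes 5 and 7, and the last of these had no read in 3 of 5 BMPC libraries.

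At the other end, members at Ifit2, Fmnl3, Dnah5, Raet1a and Uvrag closed least in KO BMPC. The member in the untranslated region of Ifit2 (chr19:34644389-34645000), an interferon-induced gene, had 11.7, 10.7 and 8.0 RPPM in C nB, 9.54 and 8.46 in KO nB, 13.2 and 6.56 in C GCB with 6.61, 8.27, 7.01 and 6.99 in KO GCB, 3.25, 1.46 and 1.56 in C BMPC and 6.20 and 5.41 in KO BMPC. The KO BMPC values were below those of KO nB without passing the test (-0.56 ± 0.32, adjusted p = 0.16). The region assigned to Dnah5, a dynein gene 554057 bp away, was the only member not lower in KO BMPC than in KO nB at all (0.18 ± 0.30, adjusted p = 0.66).

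Next, the members at genes of 4 B cell programs were examined. A region was assigned to the gene that contains it or is nearest, which does not show which gene it acts on. Transcription factors of B cells had 42 members at 15 of 28 genes (7.59% of their regions outside promoters), B cell receptor signaling 25 at 14 of 34 genes (7.33%), antigen presentation and costimulation 12 at 4 of 20 genes (12.0%), and homing and cytokine receptors 24 at 9 of 22 genes (14.3%). Not every listed gene had a region outside promoters. In the same order, 28, 32, 12 and 18 genes did, and the others could hold no member. Plasma cell genes had 6 members (3.37%), of which 2 were at Irf4, beside 4.14% over all regions outside promoters. All 42, 25, 12 and 24 of these were lower in KO BMPC than in KO nB, and 41, 23, 12 and 24 were lower than in KO GCB. Their median differences from KO nB were -2.55, -2.77, -2.20 and -2.78, near the -2.47 of all members.

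Among transcription factors, Bcl11a had the most members (10 of 45 regions), followed by Pax5 (6 of 20), Irf8 and Bcl6 (4 each) and Ebf1 and Bach2 (3 each). The strongest member of Pax5, the gene of the B cell commitment factor, lay in an intron (chr4:44680157-44680763) and had 43.4, 42.6 and 41.1 RPPM in C nB, 47.7 and 43.1 in KO nB, 30.8 and 37.5 in C GCB with 28.6, 33.7, 48.2 and 37.1 in KO GCB, 3.51, 1.46 and 4.83 in C BMPC and 5.71 and 3.55 in KO BMPC. Its KO BMPC level was lower than KO nB by -3.07 ± 0.28 (adjusted p = 6.24e-10) and lower than KO GCB by -2.75 ± 0.24 (adjusted p = 2.81e-10). This is the region whose sequence holds the octamer. The strongest member of Ebf1, an early B cell factor, also lay in an intron (chr11:44763834-44764480) and had 56.3, 50.5 and 58.8 RPPM in C nB, 54.8 and 53.9 in KO nB, 28.1 and 28.6 in C GCB with 28.6, 10.8, 22.4 and 11.9 in KO GCB, 5.98, 9.12 and 5.45 in C BMPC and 3.4 and 2.61 in KO BMPC. Values fell in steps from nB to GCB to BMPC without overlap between the cell types, and the KO BMPC libraries were below all C BMPC libraries (-0.95 ± 0.27, not called). For the members that follow in this list the KO libraries, on which the test rests, are given. At Bcl6, the repressor that directs the germinal center, the strongest member lay 162562 bp upstream (chr16:24151261-24152348) and had 61.7 and 57.3 RPPM in KO nB, 44.1, 27.4, 32.4 and 29.4 in KO GCB and 2.31 and 2.05 in KO BMPC, a difference from KO nB of -4.25 ± 0.27 (adjusted p = 8.08e-13). At Bcl11a, which encodes a zinc finger factor required for B lymphopoiesis, the strongest member (chr11:24155018-24155977) had 40.3 and 45.1 RPPM in KO nB, 37.4, 27.4, 33.3 and 25.9 in KO GCB and 8.99 and 5.97 in KO BMPC (-2.39 ± 0.22, adjusted p = 9.55e-10).

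These genes did not close as a whole. Of the 553 regions outside promoters at the 28 transcription factor genes, 180 (32.5%) were lower and 84 (15.2%) higher in KO BMPC than in KO nB, beside 19.9 and 20.5% of all regions outside promoters, and 99 were constitutively open. Over the 66177 regions 18.4% were higher, and 0 members were. Bcl11a had 33 lower and 0 higher, and Bach2, whose product holds back plasma cell differentiation, had 25 lower and 3 higher. In contrast Tcf4, which plasma cells also use, had 4 lower and 14 higher of 37, and Foxo1 2 lower and 6 higher of 28. The plasma cell list ran the other way, with 25 lower (14%) and 78 higher (43.8%) of 178 regions, and Zbtb20 had 22 of these higher.

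B cell receptor signaling members differed in how much accessibility was left in KO BMPC. In an intron of Rasgrp3 (chr17:75842208-75842901), a Ras activator that responds to diacylglycerol, KO nB had 30.1 and 36.6 RPPM, KO GCB 16.5, 20.4, 28.1 and 21.0, and KO BMPC 1.21 and 1.12 (-3.98 ± 0.26, adjusted p = 9.09e-13). The member in Blnk (chr19:41044611-41045428), the adaptor that joins SYK to downstream enzymes, kept more, with 43.9 and 36.6 RPPM in KO nB and 5.10 and 4.67 in KO BMPC (-2.81 ± 0.22, adjusted p = 4.02e-11). The member in Dapp1 (chr3:137610459-137611011), an adaptor that binds phosphoinositides, was the exception among those named. It had 25.1, 21.7 and 24 RPPM in C nB, 22 and 20.7 in KO nB, 13.2 and 10.8 in C GCB with 7.71, 8.91, 13.2 and 12.6 in KO GCB, 2.99, 2.55 and 2.65 in C BMPC and 6.32 and 7.65 in KO BMPC. The higher KO BMPC library lay only just below the lowest KO GCB library, both KO BMPC libraries were above all C BMPC libraries, and the difference from KO GCB did not pass the test (-0.51 ± 0.22, adjusted p = 0.0507).

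Antigen presentation contributed few genes but dense ones, and only 12 of the 20 listed genes had a region outside promoters. At Ciita, the master activator of MHC class II genes, 9 of 9 regions outside promoters were lower in KO BMPC than in KO nB, and 3 were members. The strongest (chr16:10515866-10516767) had 75.0, 68.2 and 68.3 RPPM in C nB, 78.1 and 78.1 in KO nB, 43.1 and 40.3 in C GCB with 40.8, 30.6, 39.5 and 27.3 in KO GCB, 4.16, 2.92 and 2.34 in C BMPC and 2.31 and 2.80 in KO BMPC. Among the strongest members of the 42 genes it had the largest difference from KO nB (-4.48 ± 0.21, adjusted p = 3.99e-15), and the genotypes overlapped in BMPC. March1, the ubiquitin ligase that turns over MHC class II, had 4 members and Cd83, a surface protein that opposes it, had 3. The strongest member of March1 (chr8:68929581-68930210), which holds the PU.1 pair shown above, had 34.7 and 31.7 RPPM in KO nB, 23.1, 35.6, 33.3 and 41.9 in KO GCB and 6.44 and 5.60 in KO BMPC (-2.29 ± 0.22, adjusted p = 1.53e-09). At Cd83 (chr13:43886016-43886410) the KO BMPC libraries kept 10.4 and 9.71 RPPM of 49.2 and 44.7 in KO nB (-2.11 ± 0.20, adjusted p = 8.85e-10).

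Homing and cytokine receptor genes had the highest share of members. Cxcr4, the receptor for CXCL12 that plasma cells use in the bone marrow, had 6 members, and the strongest, 15623 bp upstream (chr1:130504500-130505156), had 80.1, 68.2 and 81.7 RPPM in C nB, 67.9 and 61.8 in KO nB, 52.8 and 49.2 in C GCB with 40.8, 49.0, 60.1 and 35.7 in KO GCB, 12.0, 7.85 and 9.97 in C BMPC and 12.8 and 14.9 in KO BMPC. It was lower in KO BMPC than in KO nB (-2.15 ± 0.20, adjusted p = 6.73e-10), while 9 other regions of Cxcr4 were higher and 14 in all were lower. S1pr1, the receptor for exit from lymphoid tissue, had 3 members, and the strongest (chr3:115431917-115432778) fell from 67.9 and 70.8 RPPM in KO nB to 15.1 and 11.9 in KO BMPC (-2.29 ± 0.16, adjusted p = 4.00e-12). The member of Cxcr5 (chr9:44320111-44320467), the receptor that brings B cells to follicles, fell from 18.9 and 17.1 to 0.850 and 0.560 (-3.48 ± 0.29, adjusted p = 1.58e-10). The neighbors Il4ra and Il21r, receptors for cytokines of follicular helper T cells, had 4 and 5 members. The strongest of Il4ra (chr7:132685115-132686294) fell from 44.6 and 46.1 RPPM in KO nB to 3.04 and 1.87 in KO BMPC (-3.77 ± 0.21, adjusted p = 6.72e-14). The strongest of Il21r (chr7:132750956-132751798) fell from 42.6 and 43.9 to 2.07 and 1.68 (-3.95 ± 0.33, adjusted p = 1.10e-10).

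**Figure D3:**
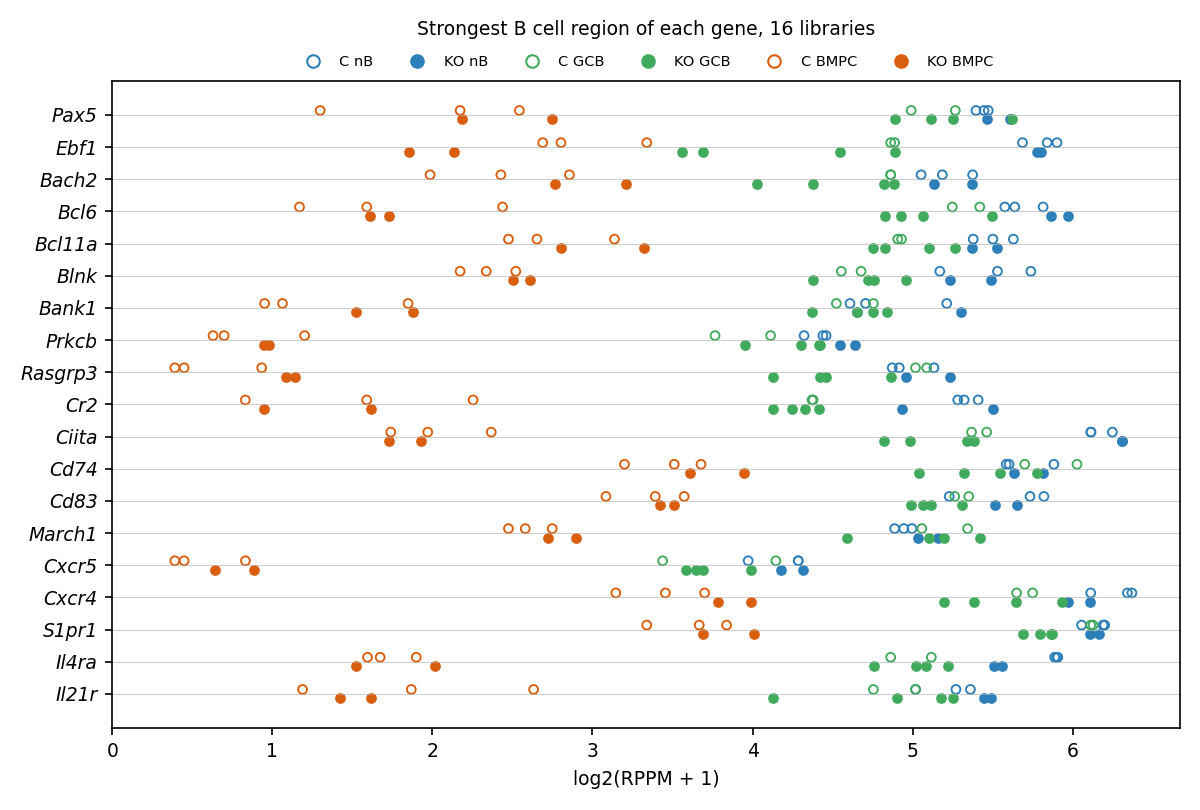
Accessibility, as log2(RPPM + 1), of the strongest member at genes of the B cell lists in all 16 libraries. Open symbols are C and filled symbols KO, in blue for nB, green for GCB and orange for BMPC. No BMPC library reaches the lowest B cell library at any of the genes shown. Every GCB library lies below every nB library at Ebf1, Cr2, Ciita and other genes, such as Bcl6, Bcl11a, Blnk, Bach2, Il4ra and Cxcr4.

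When members within 10000 bp were joined, the 2089 on assembled chromosomes formed 1780 stretches, of which 1543 held 1 member, 188 held 2 and 49 held 3 or more. Those with most members were 6 over 28379 bp from Il4ra into Il21r (chr7:132723420-132751798) and 6 over 27971 bp at Lrrk2 (chr15:91463706-91491676), a kinase gene expressed in B cells. Between them lay 6 and 1 other regions. Summed over its 6 members, the Il4ra stretch had 124 RPPM in KO nB and 10.1 in KO BMPC, and the Lrrk2 stretch 184 and 6.18.

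Counted by nearest gene, 1274 genes had a member and 32 had 5 or more. Btg1, an antiproliferative gene that is mutated in B cell lymphoma, had 13 of its 55 regions, Bcl11a 10 of 45, and Zfp608, a zinc finger gene, 8 of 15. Asap1, Lrrk2, Phlpp1, Prune2 and Sorl1 had 7 each, and Arhgap26, Armc9, Camk2d, Cxcr4, Nedd9, Pag1 and Pax5 had 6 each. Among these genes, members were most of the regions outside promoters at Prune2 (70.0%), Lrrk2 (63.6%) and Zfp608 (53.3%), and none of these 3 had a constitutively open region. Mean levels at the Lrrk2 members were 31.9 RPPM in KO nB, 30.4 in KO GCB and 0.962 in KO BMPC.

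By annotation members resembled other regions. Introns held 45.4% of them, exons 4.72%, untranslated regions 3.63% and intergenic sequence 46.2%, beside 45.4, 5.85, 4.14 and 44.6% of other regions outside promoters. Their median distance to a start site was 20635 bp, beside 17657 bp for other regions outside promoters and 12495 bp for other regions that met the B cell part of the rule. The shares beyond 100000 bp were 9.97, 7.71 and 3.93%. They were 566 bp wide at the median, beside 463 bp for other regions outside promoters and 669 bp for constitutively open ones.

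Sequence, which the rule did not use, is described next. Motif letters were searched on both strands in the central 300 bp of every region, and shares were set beside those of 48299 other regions outside promoters and 6474 constitutively open ones, as a description. The PU.1 motif GAGGAAGT was in 374 of 2089 members (17.9%, 95% Wilson interval 16.3 to 19.6%), beside 7.47% of other regions, 6.70% of constitutively open regions and 8.32% of other regions that met the B cell part of the rule. The EBF1 motif TCCCNNGGG was in 9.86% against 5.47%, the Pax5 core GCGTGAC in 2.11% against 1.03%, and the Oct-2 octamer ATGCAAAT in 6.70% against 4.53%. RUNX (AACCACA) was in 13.5% against 11.2%. The letters AGATAAG, read by zinc fingers of the GATA family, were in 4.60% against 3.48%, a ratio of 1.32 that was 1.03 in the central 200 bp.

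The PU.1-IRF composite GGAANNGAA was in 14.6% of members against 12.6%, and the plain IRF repeat GAAANNGAA in 12.5% against 14.8%, an order not found over whole regions (ratio 1.01). Both E-box forms were less frequent than elsewhere, CAGCTG in 18.1% against 21.7% and CACCTG in 22.1% against 28.5%. The lowest ratios were those of CTCF (CCNCCTNGT, 3.73% against 8.09%), EGR (GCGTGGG, 1.1% against 2.12%), ETS with CpG (CCGGAAG, 1.91% against 2.95%) and NFAT (TGGAAAA, 5.03% against 6.99%, but a ratio of 1.01 over whole regions). The shares of AP-1 (TGANTCA), NF-kappaB (GGGANTTCC), FOXO (GTAAACA), MEF2 (AAAAATAG) and BCL6 (TTCCAGGAA) had intervals that included the share of other regions. Motifs share letters, and among members with both, 22 of 57 had a PU.1 match overlapping a composite match and 15 of 53 a composite match overlapping an IRF match. A match to letters is not evidence of binding.

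**Figure D4:**
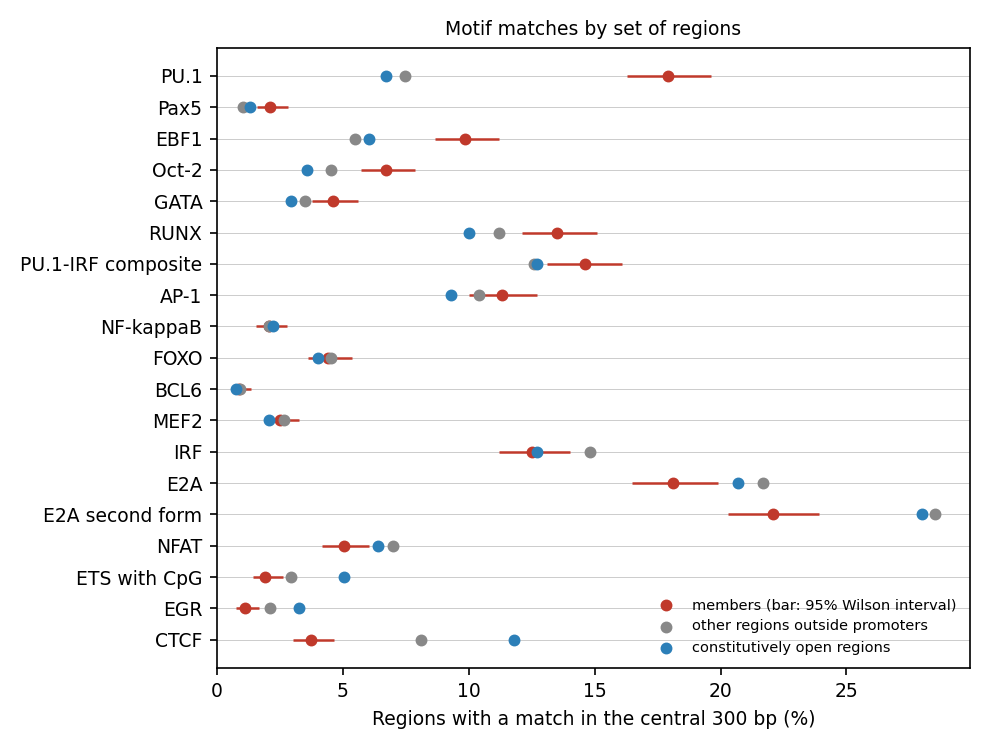
Percent of regions with at least 1 match in the central 300 bp (horizontal axis) for 19 motifs, ordered by the ratio of members to other regions outside promoters. Members are red with their 95% Wilson interval, other regions outside promoters grey and constitutively open regions blue; PU.1 stands at 17.9% of members against 7.47% and 6.70%, and CTCF at 3.73% against 8.09% and 11.8%.

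At least 1 of the 6 motifs PU.1, EBF1, Pax5, Oct-2, RUNX and the composite was in 51.5% of members, 35.8% of other regions and 34.2% of constitutively open regions, and 2 or more were in 11.8, 5.99 and 5.65%. Each of the 6 was by itself more frequent in members than in both other sets, so the higher pooled shares follow from that choice. Both E-box forms and the IRF repeat, which were less frequent in members than in other regions, were not among the 6. The members with a PU.1 match lost as much in KO BMPC as those without (median -2.47 and -2.48 from KO nB), and between KO nB and KO GCB the medians were -0.24 and -0.12. The strongest members at B cell list genes were not rich in PU.1 letters. Of these 42, 3 held GAGGAAGT (at Foxo1, Malt1 and March1), 8 the composite, 6 RUNX, 5 the octamer, 4 EBF1 and 2 the Pax5 core, at Cd55 and Ebf1.

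Members were also poor in CpG dinucleotides, the substrate of the deleted enzymes. They had a mean of 3.70 CpG in 300 bp (median 3) at a GC content of 47.0%, beside 5.16 (median 4) at 48.0% in other regions outside promoters and 7.81 (median 5) at 50.3% in constitutively open regions. At least 7 CpG were found in 12.9% of members and 41.1% of constitutively open regions.

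Between genotypes, members were called in BMPC alone among the 3 cell types, and few of them. With limma, 12 members (0.573%) were higher in KO than in C BMPC, beside 0.0907% of all regions, and 0 were lower, beside 0.0136%. At an unadjusted p under 0.05, 317 members (15.1%) were higher and 62 (2.96%) lower, beside 6.96 and 2.59% of all regions. The count tests on recovered reads called more, with 58 higher and 3 lower by edgeR's quasi-likelihood test (1.45 and 0.361% of all regions) and 37 and 1 by DESeq2 (0.618 and 0.128% of all regions). The rule leans on this contrast, because it took regions whose C BMPC values were low and never looked at KO BMPC. The median log2 difference between KO and C BMPC was 0.13 for the members, 0.02 for the 2155 regions that the same rule finds in the KO libraries, 0.07 for the 2088 found from both genotypes together and 0.07 over all regions outside promoters. Of the members, 69.4% were also found in the KO libraries, and 67.5% of the KO list were members. Both KO BMPC libraries were above all C BMPC libraries at 22.1% of members and below at 6.06%, beside 13247 and 9162 of all 66177 regions, so that the genotypes did not overlap in BMPC at 28.1% of members and 33.9% of all regions. In the list chosen from KO libraries these shares were 12.0 and 10.2%.

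**Figure D5:**
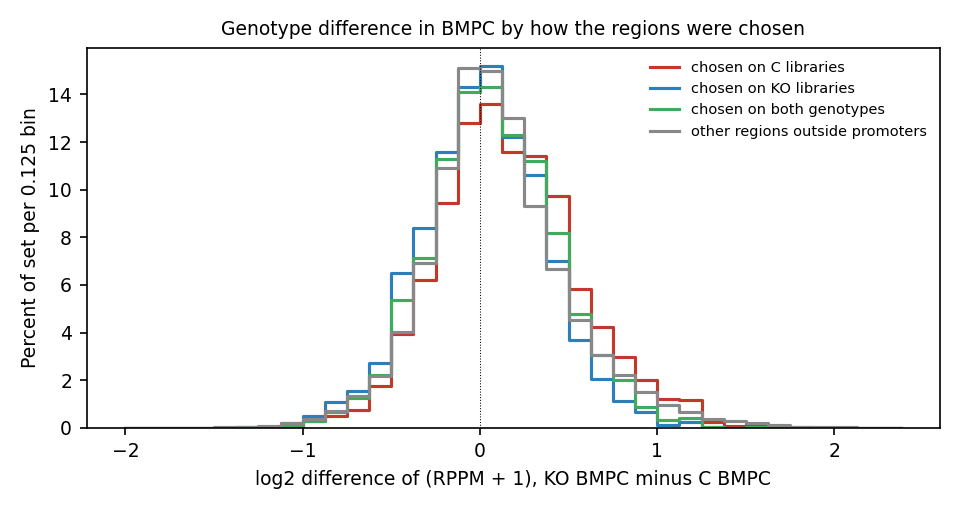
Log2 difference of (RPPM + 1) between KO and C BMPC, as the percent of each set per bin, for regions chosen on C libraries (the members, red), on KO libraries (blue) or on both genotypes (green), and for other regions outside promoters (grey). The medians are 0.13, 0.02 and 0.07 for the 3 lists, so that the position of the curve moves with the libraries that chose it.

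The 5 largest of the 12 are given as values, without a p, since their low C BMPC level was part of how they were chosen. The member 110098 bp upstream of Stc1 (chr14:69536424-69537247), a secreted glycoprotein gene, had 50.7, 39.4 and 43.5 RPPM in C nB, 48.2 and 44.7 in KO nB, 33.0 and 36.5 in C GCB with 45.2, 36.3, 41.2 and 53.1 in KO GCB, 4.94, 4.38 and 4.36 in C BMPC and 13.8 and 16.8 in KO BMPC, a log2 difference between genotypes of 1.55 ± 0.17 (SE). It still closed in KO plasma cells, to 33.0% of its KO nB level. In an intron of Mta3 (chr17:84172087-84172586), which encodes a corepressor subunit that acts with BCL6, the BMPC libraries had 3.12, 4.93 and 3.27 RPPM in C and 11.1 and 13.4 in KO, and the nB libraries 23.9, 22 and 30.0 in C and 42.6 and 36.6 in KO, so that the genotypes did not overlap in nB either. The member near Trp53i11 (chr2:93007056-93007637), a p53-induced gene, had 3.38, 2.19 and 5.14 RPPM in C and 12.6 and 10.6 in KO BMPC. In A930011G23Rik (chr5:99811634-99812242) the BMPC values were 2.21, 0.912 and 0.934 in C and 4.74 and 6.91 in KO. The region assigned to Dnah5 had 1.82, 0.912 and 0.934 RPPM in C BMPC and 6.07 and 6.91 in KO BMPC, 116% of its KO nB level. In all 5 the genotypes did not overlap in BMPC. A second region of A930011G23Rik was among the 12, and the others were at Afap1l2, Sipa1l2, Phc2, Mrvi1 and 2 transcripts without a symbol. Only 1 of the 12 also met the rule in the KO libraries. That rule asks for a low KO BMPC level, so choosing regions higher in KO BMPC works against meeting it.

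The call rests on few libraries. Without KO BMPC replicate 2 no member was called and without KO BMPC replicate 1 only 1, without C BMPC replicate 2 or 3 there were 2, and without C BMPC replicate 1, which had the highest members' share of the C BMPC libraries, there were 24. Left out of the shared estimate of the spread, any 1 nB library brought the count to 7 and KO GCB replicate 1, the shallowest library, to 25. Shares over all regions were not counted for these fits. Beside this, the summed promoters of the 8 B cell markers were 116, 122 and 113 RPPM in C BMPC and 117 and 110 in KO BMPC, so that the genotypes overlapped. Of these 8, 2 were higher in both KO BMPC libraries than in any C BMPC library, 2 were lower in both, and the other 4 overlapped. The Ms4a1 promoter had 11.7 to 14.6 RPPM in C BMPC and 16.2 to 16.6 in KO BMPC, that of Cd79a 14.2 to 18.2 and 12.5 to 13.3, and that of Ebf1 41.4 to 48.9 and 37.1 to 38.5.

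By number of CpG, and again as a description, the median difference between KO and C BMPC was -0.02 for 140 members with no CpG in the central 300 bp, 0.11 for 674 with 1 or 2, 0.16 for 864 with 3 to 5 and 0.19 for 411 with 6 or more, and the shares with a higher KO mean were 47.9, 62.9, 66.4 and 66.9%. Other regions outside promoters gave 0.03, 0.05, 0.08 and 0.07. Over the same groups of members the differences in nB were -0.04, 0.00, 0.01 and 0.03 and in GCB -0.04, -0.03, -0.02 and -0.05. The level in C BMPC also rose with CpG, from 0.967 to 1.47 RPPM, and its part was not tested.

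In GCB and nB no member was called between genotypes in either direction. For GCB 53 of 2096 members were higher and 76 lower in KO at an unadjusted p under 0.05 in limma, beside 4930 and 2871 of all 66177 regions. By edgeR's quasi-likelihood test 31 and 92 members were, and by DESeq2 17 and 72, without a count over all regions at this limit. Each tool called 0 members, beside 0.0317% of all regions higher and 0% lower in limma. For nB the unadjusted member counts were 4 and 13 in limma, beside 417 and 690 of all regions. They were 38 and 50 in edgeR and 11 and 22 in DESeq2, again with 0 members called, and 0% of all regions in both directions in limma. The medians were -0.03 in GCB and 0.00 in nB. No member passed the limma test of a genotype effect that differs between BMPC and nB (0% of all regions). At an unadjusted p under 0.05 in limma, 191 members were higher and 33 lower, beside 2613 and 857 of all 66177 regions. The rule leans on this contrast too, because it took regions whose C BMPC values were low beside C nB. In the 2155 regions that the same rule finds in the KO libraries, 64 were higher and 68 lower. The excess of higher members is therefore a description and not a test of genotype. The quasi-likelihood test of edgeR called 6 members (beside 0.0740% of all regions), DESeq2 6 (beside 0.0423%) and edgeR's likelihood ratio test 16 (beside 0.267%).

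Between the B cell stages of KO mice, 41 members (1.96%) were higher in GCB than in nB, beside 18.4% of all regions, and 117 (5.58%) were lower, beside 7.84%. The rule kept nB and GCB within 2-fold in the C libraries, which bears on both counts. The median difference was -0.15 for members and 0.12 over all regions.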

How the data were processed

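ATAC-seq reads of mouse nB, GCB and BMPC were mapped to mm9 and peaks were called for each library with MACS2 and merged by the authors (the submitters' processing notes name Bowtie 1.1.1, Picard 1.127, MACS2 2.1.0.20140616 and edgeR 3.12.1). The authors deposited RPPM, which is RPM over the reads in merged regions. The authors also deposited, for 9 comparisons, log2 fold changes and log2 levels, test scores, p-values and adjusted p-values, and these were not used. Groups followed the labels, 1 of the 17 labelled libraries has no column and was not analysed, and 0 value columns lacked a sample.

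RPPM values gave whole reads in 100% of cases within 0.01 reads. Differences were fitted over all 66177 regions with limma 3.58.1 (R 4.3.3) on log2(RPPM + 1) with 6 groups sharing the spread, and an adjusted p (Benjamini-Hochberg) of at most 0.01 with a log2 difference of at least 1 was called. The count tests edgeR 4.0.16 and DESeq2 1.42.0 on recovered reads, other pseudocounts, filters, scalings, rule limits, motif windows and left-out libraries were alternatives. On simulated data the limma test recovered 139 of 200 regions changed 4-fold between KO and C BMPC among 66177 and called 0 others. The changed regions were drawn from those with a mean of at least 5 RPPM over all libraries, with the same spread for every region. Many members were near the counting floor in BMPC, so this recovery need not hold for them. According to the study, nB and BMPC libraries came from single mice and GCB libraries from pooled mice. Intervals and the floor of 3 reads cover counting error only.

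Named regions were the strongest member by nB level of each list gene, the 5 members that closed most and the 5 that closed least in KO BMPC, the 5 largest genotype differences among called members, and the 3 regions on either side of the 4-fold limit. The members and lists were chosen with earlier results of these data known. Sequence was read for 2089 members (7 lay on random or unplaced sequence) with Python 3.11.15. Results for some genes are not reported here.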

Additional observations from a re-analysis of the deposited data

Results flagged for a closer look

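Among 65 measures in the 4 KO GCB libraries, 2 had a library far from the others by Dixon's criterion, which chance alone does in about 1 of 20. The Ifngr1 member (chr10:19303905-19304399), near the gene of the interferon-γ receptor, had 4.19 RPPM in KO GCB replicate 4 and 9.91, 10.1 and 10.8 in the others. The region near Nab1 (chr1:52578046-52578715), just outside the 4-fold limit, had 7.0 RPPM in KO GCB replicate 2 and 11, 11.8 and 11.2 in the others.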

How the results depend on the processing

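The counts of members lower in KO BMPC stayed within 1.5 times of 2027 (against KO nB) and 2022 (against KO GCB) under all 28 alternatives, and were 1921 to 2038 and 1922 to 2031 with 1 library left out. The medians were -3.13 and -2.98 with a pseudocount of 0.1 RPPM and -1.45 and -1.37 with 5, and quantile normalization gave -2.19 against KO GCB. The rule found 1151 members at a minimum of 10 RPPM, and 2088 from means over both genotypes, an alternative chosen after seeing the data. The genotype counts in BMPC were less stable. The 12 higher members became 1 with a pseudocount of 5 RPPM and with quantile normalization, 3 when the compared groups alone were fitted, 40 at an adjusted p of 0.05, 58, 70 and 37 by edgeR's quasi-likelihood and likelihood ratio tests and DESeq2, and 0 to 25 with 1 library left out. The 0 lower members became 2 with a pseudocount of 0.1 RPPM, 3, 8 and 1 by those tools, and 0 to 1 with 1 library left out (1 without C BMPC replicate 1). The interaction count of 0 became 2 with the compared groups alone, 1 at an adjusted p of 0.05, and 6, 16 and 6 by the tools. For KO GCB against KO nB, the 41 higher members became 25 and 5 with pseudocounts of 0.1 and 5 RPPM, 24 with TMM scaling, 64 without chrM, and 21 to 44 with 1 library left out (21 without either KO nB library), and the 117 lower became 64, 34, 200, 206 and 188 with the 2 pseudocounts and the 3 count tools, and 45 to 129 (45 and 50 without KO nB replicate 1 or 2). For KO against C BMPC, edgeR's likelihood ratio test called 2.01% of all regions higher and 0.526% lower. Alternatives other than the 3 count tools have no count over all regions beside them. The causes were not tested.

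F2 and M1 numbered GCB pools of both genotypes, and the difference between them in C had r = 0.04 with that in KO over 64511 autosomal regions. With 1 pair of differences from shallow libraries, this cannot decide whether the number pairs the libraries. With the pool as replicate block, 34 members were higher in KO BMPC, 1 was lower in KO GCB than in C GCB and 1 had an interaction. Shares over all regions were not counted with this block, so these counts cannot be set beside them. The counts lower in KO BMPC were 2044 and 2029.

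Of 1680 values for 60 results at named regions, 1644 kept their direction and side of the threshold, 34 lost and 1 gained the call. The reversed value was at Raet1a, where KO BMPC minus KO nB was 0.09 without KO nB replicate 2, -0.81 without KO nB replicate 1 and -0.36 with both. Of 57 motif shares under other windows or backgrounds, 22 stayed the same and 35 moved, since a longer window holds more matches. The PU.1 share was 14.8% in the central 200 bp and 22.2% in the whole region, with ratios to other regions of 2.55 and 2.33. The ratios of IRF, NFAT and MEF2 were 1.01, 1.01 and 1.17 over whole regions, and that of GATA 1.03 in 200 bp. Depth limited GCB most, where 3 reads were worth up to 3.3 RPPM.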
